A study of Mus musculus with 12 samples.

Results

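The transforming growth factor beta (TGF-beta) and bone morphogenetic protein (BMP) pathway was examined in mouse inner medullary collecting duct (mIMCD3) cells that lacked either Pkd1 or Pkd2. The members are 50 named genes for ligands, latent binding proteins, receptors, Smads, inhibitors and targets, matched by Ensembl identifier among the 47642 genes of the deposited table. mIMCD3 is an immortalized collecting duct line from mice that carry the SV40 early region. Pkd1 encodes polycystin-1 and Pkd2 encodes the cation channel polycystin-2, and loss of either gene causes autosomal dominant polycystic kidney disease. The 12 libraries were 4 of wild-type cells, 4 of 1 Pkd1-/- clone made with CRISPR and 4 of 1 Pkd2-/- clone made with TALEN, in which exons 4 to 9 of Pkd2 are deleted. All cells were grown in medium with fetal bovine serum and were otherwise untreated. RNA was taken 4 days after full confluency from 4 of the 6 dishes of each genotype. The 4 replicates of a genotype are therefore dishes of 1 line, p-values measure only the spread between them, and genotype and clone cannot be told apart.

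TGF-beta ligands are secreted in a latent complex with their own propeptide, which latent TGF-beta binding proteins tether to the matrix. Once released, a ligand brings together type I and type II receptor kinases, which phosphorylate Smad2 and Smad3 for TGF-beta and activins, or Smad1, Smad5 and Smad9 for BMPs, and these enter the nucleus with Smad4. The inhibitory Smads, the ubiquitin ligases Smurf1 and Smurf2 and secreted antagonists limit the signal, and the pathway is known in the kidney for its part in branching of the collecting duct and in fibrosis.

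Values are normalized counts, that is, read counts divided by the size factor of each library, and the table totals were 25966273 to 28027792 per library. Pkd1 had 682 to 883 normalized counts in wild-type and 30 to 49 in Pkd1-/- libraries. Pkd2 had 3438 to 4467 in wild-type and 3855 to 4135 in Pkd2-/- libraries, a level that checks nothing, as reads from exons outside the deletion also count. Of 20 epithelial and collecting duct markers, 15 had a mean of at least 10 in each genotype, but Aqp2, the vasopressin-regulated water channel that defines principal cells, was at 0 in all libraries. Avpr2 and Slc14a2 were at 0 or 1 in every library. The genotypes also differed in some of these markers. In wild-type, Pkd1-/- and Pkd2-/- cells the means were 4472, 1329 and 1409 for Krt19 and 227, 48.5 and 354 for Gata3. For Cdh1 they were 13696, 13965 and 15572. The summed level of 10 fibroblast markers was 75 to 113 in wild-type libraries, 384 to 413 in the Pkd1-/- clone and 15 to 163 in the Pkd2-/- clone, where replicate 3 was highest, with Col1a1 at 31 and Col1a2 at 44. Among the fibroblast markers, Thy1 and Fap were at 0 in every library and Postn made up most of the Pkd1-/- sum. Col3a1 had means of 4.75, 66.25 and 14.5 in wild-type, Pkd1-/- and Pkd2-/- cells. The part of these marker levels in the results below was not tested. In bulk RNA, fewer cells that express a gene and less RNA per cell cannot be told apart.

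Of the 50 members, 41 passed the filter of a mean of at least 1 normalized count over the 12 libraries and 9 did not. limma was run on log2(normalized count + 1), so fold changes of low genes are understated, and an adjusted p under 0.05 over the 18552 genes tested was called. In Pkd1-/- cells 7 members rose and 14 fell, which is 51.2% of those tested, beside 27.1% of all genes (13.6% higher and 13.5% lower). In Pkd2-/- cells 8 rose and 14 fell, which is 53.7%, beside 42.3% of all genes (20% higher and 22.3% lower). Between the mutants 25 members differed, 12 higher and 13 lower in Pkd2-/- than in Pkd1-/- cells, or 61.0% beside 46.3% of all genes (21.9% higher and 24.3% lower). All-gene shares at this threshold, here and for the further genes below, count low genes as well. With a minimum mean of 10, 13703 genes were tested. Of these, 2429 rose and 2425 fell in Pkd1-/- cells, and 3603 rose and 3851 fell in Pkd2-/- cells. Against Pkd1-/- cells, 3916 were higher and 4141 lower in Pkd2-/- cells. Of the 50 members, 38 reached a mean of 10 in a genotype. In Pkd2-/- cells and between the mutants, the called share of these 13703 genes lay close to that of the members. No excess of members is therefore shown there. In Pkd1-/- cells the members' 51.2% was still above that share, but the members were chosen with earlier results of these data known. An excess over genes of like level was not tested.

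At a minimum change of 1 log2 unit as well, 2 members were higher and 4 lower in Pkd1-/- cells, beside 6.24% of all genes (2.96% higher and 3.28% lower). In Pkd2-/- cells 3 were higher and 9 lower, beside 9.62% of all genes (3.24% higher and 6.38% lower). Between the mutants 4 were higher and 7 lower in Pkd2-/- cells, beside 11.8% of all genes (4.53% higher and 7.23% lower). The median log2 fold change of the 41 members was near that of all genes, at -0.10 against 0.01 in Pkd1-/-, -0.05 against -0.01 in Pkd2-/- and 0.05 against -0.01 between the mutants. Both mutant comparisons share the wild-type libraries.

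**Figure D1:**
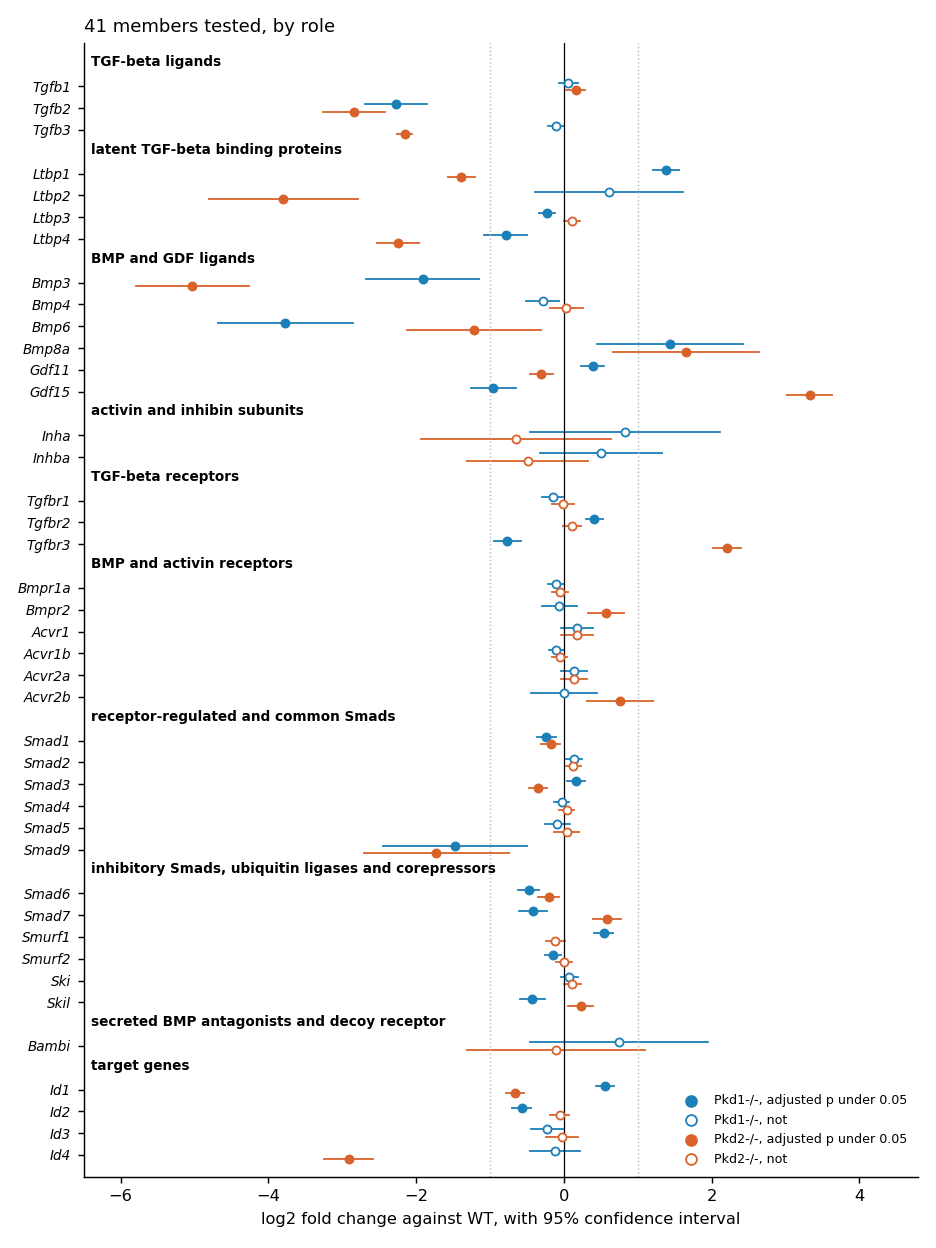
Log2 fold change against wild-type of the 41 members tested (x axis) with its 95% confidence interval, by role (y axis), in Pkd1-/- (blue) and Pkd2-/- cells (orange). Filled points passed an adjusted p under 0.05 and dotted lines mark a log2 fold change of 1 in either direction. Bmp3, Ltbp2 and Id4 in Pkd2-/- cells and Bmp6 in Pkd1-/- cells lie farthest to the left, and Gdf15 in Pkd2-/- cells lies farthest to the right.

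The promoters of 4 members that changed over 1 log2 unit in Pkd2-/- cells are shown, 1 from each of the ligands, latent binding proteins, targets and stress-responsive ligands, since the differences described here are in transcript level. Each is the RefSeq window of 300 bases, 250 before and 50 after a start site on GRCm38.p6, written in the direction of the gene, and RefSeq windows were at hand for 38 of the 50 members. Capitals mark the letters CAGAC, a Smad box, and GGCGCC, a GC-rich sequence known to bind BMP-activated Smads, on either strand. The windows of Tgfb2 (chr1:186705940-186706239, minus strand), Ltbp2 (chr12:84876442-84876741, minus strand), Id4 (chr13:48260866-48261165, plus strand) and Gdf15 (chr8:70632407-70632706, minus strand) read as follows.
Tgfb2: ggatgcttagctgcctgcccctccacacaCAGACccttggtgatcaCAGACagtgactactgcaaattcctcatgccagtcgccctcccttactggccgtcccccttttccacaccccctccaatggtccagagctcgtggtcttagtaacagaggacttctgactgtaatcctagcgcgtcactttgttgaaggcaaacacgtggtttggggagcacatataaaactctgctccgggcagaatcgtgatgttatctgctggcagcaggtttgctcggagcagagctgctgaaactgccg
Ltbp2: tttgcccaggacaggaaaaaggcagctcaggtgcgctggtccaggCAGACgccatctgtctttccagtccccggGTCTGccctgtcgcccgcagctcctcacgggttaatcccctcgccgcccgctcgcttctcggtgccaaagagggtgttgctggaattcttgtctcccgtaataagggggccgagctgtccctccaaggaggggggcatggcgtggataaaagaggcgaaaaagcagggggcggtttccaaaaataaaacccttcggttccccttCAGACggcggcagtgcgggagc
Id4: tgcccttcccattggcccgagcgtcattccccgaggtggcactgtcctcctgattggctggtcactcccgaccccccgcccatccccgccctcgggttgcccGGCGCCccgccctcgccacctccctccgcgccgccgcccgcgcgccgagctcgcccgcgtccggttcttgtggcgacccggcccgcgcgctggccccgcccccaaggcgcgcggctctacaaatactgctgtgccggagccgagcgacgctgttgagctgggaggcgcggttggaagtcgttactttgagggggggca
Gdf15: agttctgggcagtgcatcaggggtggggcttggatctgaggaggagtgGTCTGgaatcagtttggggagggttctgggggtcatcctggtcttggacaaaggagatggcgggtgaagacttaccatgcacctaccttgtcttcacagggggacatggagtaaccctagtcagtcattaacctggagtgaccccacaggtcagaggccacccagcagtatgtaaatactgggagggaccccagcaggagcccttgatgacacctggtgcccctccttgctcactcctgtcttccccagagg
CAGAC is found 2 times in the window of Tgfb2, 3 times in that of Ltbp2 and 1 time in that of Gdf15, and GGCGCC 1 time in that of Id4. Of all 32851 RefSeq promoter windows, 49.6% hold CAGAC and 11.9% hold GGCGCC on either strand, and 24 and 16 of the 47 windows of these 38 members do. The letters TGATGNAA, a C/EBP-ATF composite element, are in none of these 4 windows, in 1 of the 47 windows of members and in 3.97% of all windows. These matches are descriptions of the letters, not of binding.

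All 3 TGF-beta ligand genes were expressed, and Tgfb2 and Tgfb3 fell by over 1 log2 unit in at least 1 mutant, while the log2 fold changes of Tgfb1 were under 0.2. Tgfb2 (ENSMUSG00000039239, chromosome 1 from 186622792 to 186705989, minus strand) encodes the isoform with the strongest need for the coreceptor betaglycan. It had 211, 217, 220 and 211 normalized counts in replicates 1 to 4 of wild-type cells, 55, 38, 44 and 40 in those of the Pkd1-/- clone and 20, 37, 24 and 40 in those of the Pkd2-/- clone. All 8 mutant libraries lay below all wild-type libraries, and the mutants overlapped each other. Its mean of 215 ± 4.50 (SD, n = 4) fell to 44.2 ± 7.59 with loss of Pkd1, by -2.27 ± 0.20 log2 units (SE, adjusted p = 5.5e-08), and to 30.2 ± 9.74 with loss of Pkd2, by -2.84 ± 0.20 log2 units (SE, adjusted p = 1.1e-09). The difference between the mutants was small, at -0.58 ± 0.20 with an adjusted p of 0.023, and it was -0.47, -0.40 and -0.49 with adjusted p-values of 0.080, 0.092 and 0.070 without Pkd1-/- replicate 1, Pkd2-/- replicate 1 or Pkd2-/- replicate 3.

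Tgfb3 (ENSMUSG00000021253, chromosome 12 from 86056745 to 86079041, minus strand), the isoform known for palate fusion, had 3102, 3453, 3350 and 3532 normalized counts in wild-type libraries. It had 3162, 3030, 3187 and 3090 in Pkd1-/- and 776, 705, 772 and 757 in Pkd2-/- libraries. The Pkd2-/- libraries stood below all 8 others, while wild-type and Pkd1-/- libraries overlapped. The log2 fold change was -2.16 ± 0.05 in Pkd2-/- cells (SE, adjusted p = 2.5e-16) and -2.05 ± 0.05 between the mutants (SE, adjusted p = 2.5e-16), against -0.11 ± 0.05 in Pkd1-/- cells (SE, adjusted p = 0.14). Without wild-type replicate 1 the value in Pkd1-/- cells was -0.14 with an adjusted p of 0.045. Tgfb1, the most studied isoform, had a mean of 1004 ± 75.7, 1046 ± 48.5 and 1120 ± 43.3 (SD, n = 4) in wild-type, Pkd1-/- and Pkd2-/- cells. Its rise in Pkd2-/- cells, 0.16 (adjusted p = 0.043), was 0.11 (adjusted p = 0.16) without wild-type replicate 1 and was also lost without any of 6 other single libraries. With libraries scaled to the same upper quartile it was 0.11 (adjusted p = 0.17).

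Levels of different genes were set side by side per kb of annotated exon. That length merges the exons of all annotated transcripts and can exceed the transcript expressed, so levels and shares per kb are rough between genes. The 3 ligands summed to 1229 ± 69.0 normalized counts per kb in wild-type cells, 1137 ± 30.0 in the Pkd1-/- clone and 450 ± 14.8 in the Pkd2-/- clone (SD, n = 4). Tgfb3 made up 80.8% ± 0.509 of that sum in wild-type cells, 81.1% ± 0.50 in the Pkd1-/- clone and 49.4% ± 1.20 in the Pkd2-/- clone. Tgfb1 made up 16.2% ± 0.524, 18.2% ± 0.488 and 49.4% ± 0.990, so that by this rough measure both isoforms had like levels in Pkd2-/- cells.

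The latent TGF-beta binding proteins moved in different directions. Ltbp1 (ENSMUSG00000001870, chromosome 17 from 75005568 to 75392512, plus strand), which tethers latent TGF-beta to fibrillin and fibronectin in the matrix, had 587, 580, 591 and 640 normalized counts in wild-type libraries. It had 1514, 1703, 1512 and 1537 in Pkd1-/- and 221, 229, 195 and 277 in Pkd2-/- libraries. The 3 genotypes did not overlap, with wild-type in the middle. On the log2 scale it differed from wild-type by 1.38 in the Pkd1-/- and by -1.39 in the Pkd2-/- clone, each ± 0.09 (SE, adjusted p = 4.9e-10 and 2.0e-10), and the value between the mutants was -2.77 (adjusted p = 5.8e-15).

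Ltbp4 (ENSMUSG00000040488, chromosome 7 from 27305136 to 27337692, minus strand), which binds latent TGF-beta1 and helps to assemble elastic fibres, had 474, 530, 527 and 499 normalized counts in wild-type libraries. It had 309, 297, 306 and 262 in Pkd1-/- and 107, 77, 105 and 147 in Pkd2-/- libraries. Again no genotypes overlapped, but here wild-type was highest, and the log2 fold change was -0.79 ± 0.14 in Pkd1-/- (SE, adjusted p = 0.00021) and -2.24 ± 0.14 in Pkd2-/- cells (SE, adjusted p = 1.6e-10). Ltbp2 (ENSMUSG00000002020, chromosome 12 from 84783212 to 84876532, minus strand), which lacks the capacity to bind latent TGF-beta, had 54, 69, 43 and 57 in wild-type libraries, 66, 85, 106 and 86 in the Pkd1-/- clone and 0, 5, 3 and 10 in the Pkd2-/- clone. The Pkd2-/- libraries lay below the rest, with a log2 fold change of -3.80 ± 0.48 (SE, adjusted p = 3.0e-06), and wild-type and Pkd1-/- libraries overlapped, with 0.61 ± 0.48 (SE, adjusted p = 0.40). Fitted with these 2 genotypes alone, that value was 0.61 ± 0.19 (SE, adjusted p = 0.021). An antisense gene, D030025P21Rik, shares 9.34% of the exon bases of Ltbp2, and without the strand setting of the counting its reads cannot be told apart there. Likewise Tgfb2 shares 2.14% of its exon bases with Gm29491 and Tgfb3 4.82% with Gm37804, both on the opposite strand.

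Ltbp3, which is needed to secrete latent TGF-beta in bone, held most of the family's level. It made up 90.9% ± 0.450 of the summed level per kb in wild-type cells, 85.6% ± 0.665 in the Pkd1-/- clone and 97.5% ± 0.415 in the Pkd2-/- clone (SD, n = 4). Its mean was 12832 ± 996, 10928 ± 378 and 13818 ± 294 normalized counts (SD, n = 4), a fall of log2 fold change -0.23 in Pkd1-/- cells (adjusted p = 0.0024) and 0.11 in Pkd2-/- cells (adjusted p = 0.10). The value in Pkd2-/- cells was 0.14 with an adjusted p of 0.046 without wild-type replicate 3. The 50 genes nearest to Ltbp3 with a mean of at least 10 had a median of 0.22 in Pkd1-/- and of 0.25 in Pkd2-/- cells.

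**Figure D2:**
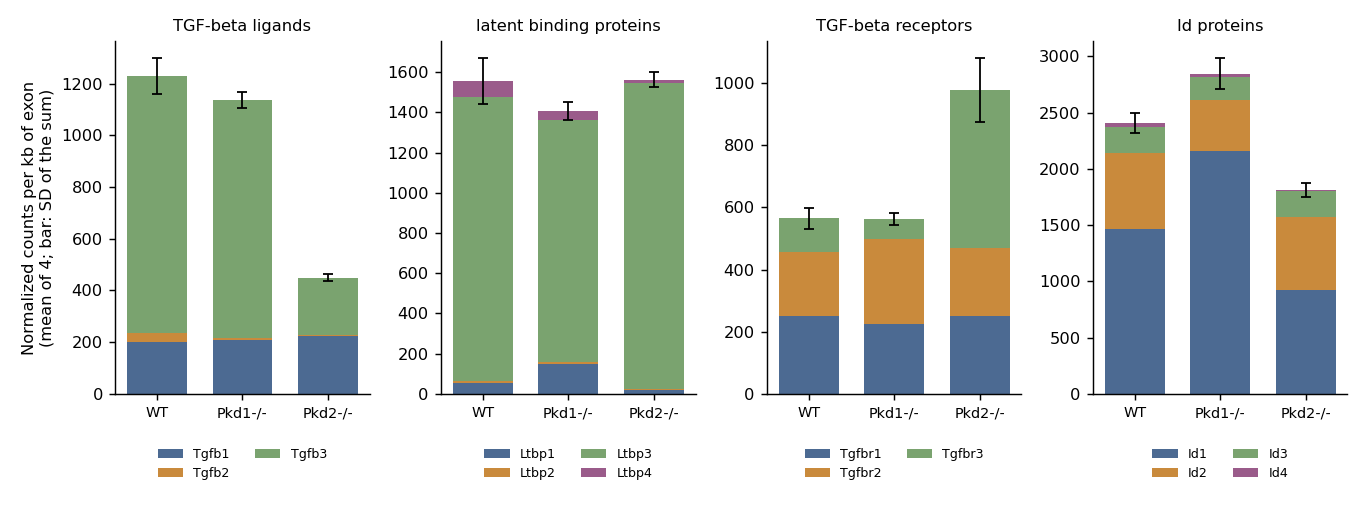
Summed normalized counts per kb of exon (y axis, from 0) in the 3 genotypes for the TGF-beta ligands, latent binding proteins, TGF-beta receptors and Id proteins, each bar split by gene, with the SD of the sum over 4 libraries. The ligand sum is 1229 in wild-type and 450 in Pkd2-/- cells, most of the difference being Tgfb3, and the receptor sum is 564 and 978, most of the difference being Tgfbr3.

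Among the BMP and growth differentiation factor (GDF) ligands, Gdf15 rose about 10-fold in Pkd2-/- cells and Bmp3 fell in both mutants, while Bmp2, Bmp5 and Bmp7 were at or under 3 normalized counts in every library. Gdf15 (ENSMUSG00000038508, chromosome 8 from 70629393 to 70632456, minus strand), a stress-induced member of the family that signals through the distant receptor GFRAL, had 107, 135, 164 and 150 in wild-type libraries. It had 78, 70, 54 and 83 in Pkd1-/- and 1247, 1212, 1481 and 1648 in Pkd2-/- libraries. The genotypes did not overlap, with Pkd1-/- lowest and Pkd2-/- highest. Its log2 fold change was -0.95 ± 0.15 in Pkd1-/- (SE, adjusted p = 5.4e-05), 3.33 ± 0.15 in Pkd2-/- (SE, adjusted p = 1.4e-12) and 4.28 ± 0.15 between the mutants (SE, adjusted p = 2.2e-14). Of the level per kb summed over the BMP, GDF and activin ligands, Gdf15 made up 24.3% ± 3.07 in wild-type cells, 13.6% ± 2.43 in the Pkd1-/- clone and 78.6% ± 2.84 in the Pkd2-/- clone (SD, n = 4).

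Bmp3 (ENSMUSG00000029335, chromosome 5 from 98854415 to 98884396, plus strand), an atypical BMP that opposes the other BMPs in bone, had 83, 96, 86 and 96 normalized counts in wild-type libraries. It had 11, 20, 37 and 35 in Pkd1-/- and 4, 2, 1 and 1 in Pkd2-/- libraries. No genotypes overlapped, and it changed by -1.91 ± 0.36 log2 units in Pkd1-/- (SE, adjusted p = 0.00052) and -5.03 ± 0.36 in Pkd2-/- cells (SE, adjusted p = 1.8e-09). The 50 nearest genes on chromosome 5 with a mean of at least 10, 25 on each side, had a median of -0.50 in Pkd1-/- and of -0.10 in Pkd2-/- cells.

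Bmp6 (ENSMUSG00000039004, chromosome 13 from 38345107 to 38500302, plus strand), the BMP that drives hepcidin expression in the liver, was low, with 9, 10, 20 and 14 normalized counts in wild-type libraries. It was at 0 in all 4 Pkd1-/- libraries, and had 10, 5, 5 and 2 in Pkd2-/- libraries. Against the limit of 3 counts per library that a count of 0 allows, it was at least 4.42-fold lower in Pkd1-/- than in wild-type cells (adjusted p = 2.0e-06). The fall in Pkd2-/- cells, -1.22 (adjusted p = 0.030), was lost without any 1 of 5 libraries, for example -1.01 (adjusted p = 0.11) without wild-type replicate 3 and -0.89 (adjusted p = 0.13) without Pkd2-/- replicate 4, and also without wild-type replicate 4 or Pkd2-/- replicates 2 or 3. Txndc5, on the opposite strand, shares 5.74% of the exon bases of Bmp6.

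Bmp8a (ENSMUSG00000032726, chromosome 4 from 123312645 to 123343252, minus strand), a BMP of germ cells and brown fat, had 6, 1, 14 and 12 in wild-type libraries, 21, 19, 25 and 12 in the Pkd1-/- clone and 21, 21, 27 and 19 in the Pkd2-/- clone. Only the Pkd2-/- libraries lay wholly above the wild-type libraries, with a log2 fold change of 1.66 ± 0.47 (SE, adjusted p = 0.0077), and that in Pkd1-/- cells was 1.44 ± 0.47 (SE, adjusted p = 0.029). The call in Pkd1-/- cells was lost without wild-type replicate 2, where it was 0.82 (adjusted p = 0.076), and without wild-type replicate 1 or Pkd1-/- replicates 1, 2 or 3. Bmp8b is a near copy of Bmp8a, so the split of reads between them is uncertain. Gdf11, a patterning ligand close to myostatin, had means of 474 ± 26.1, 620 ± 17.3 and 384 ± 37.5 (SD, n = 4) in wild-type, Pkd1-/- and Pkd2-/- cells, which did not overlap. It rose by 0.39 in Pkd1-/- (adjusted p = 0.00055) and fell by 0.30 on the log2 scale in Pkd2-/- cells (adjusted p = 0.0027).

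Bmp4, which regulates branching of the ureteric bud, passed the test against wild-type in neither mutant, with log2 fold changes of -0.29 (adjusted p = 0.053) in Pkd1-/- and 0.03 (adjusted p = 0.84) in Pkd2-/- cells. Without Pkd1-/- replicate 1 the first was -0.33 with an adjusted p of 0.041. Between the mutants it was 0.32 (adjusted p = 0.018), and 0.22 (adjusted p = 0.082) without Pkd1-/- replicate 2 or 0.29 (adjusted p = 0.057) without Pkd2-/- replicate 1. The activin and inhibin subunits were near the limit of detection, with Inha at 0 to 5, Inhba at 2 to 9 and Inhbb at 0 to 5 normalized counts, and none was called against wild-type. Between the mutants Inhba was at -0.99 (adjusted p = 0.045), a call lost without any 1 of 7 libraries. Inha was at -1.48 (adjusted p = 0.057), or -1.97 (adjusted p = 0.012) without Pkd1-/- replicate 4.

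**Figure D3:**
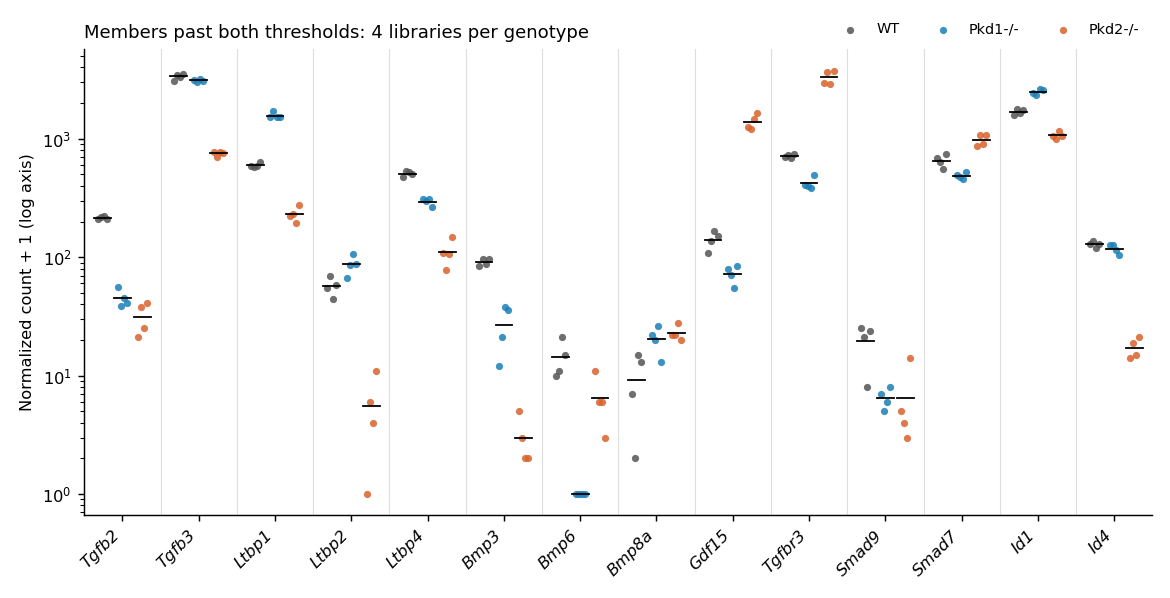
Normalized count + 1 (log y axis) of the 14 members with an adjusted p under 0.05 and a change of 1 log2 unit or more in any comparison, 1 point per library and a line at the mean of 4, in wild-type (grey), Pkd1-/- (blue) and Pkd2-/- cells (orange). Tgfb3, Ltbp2 and Id4 are low in the Pkd2-/- libraries alone, Bmp6 is at 0 in the Pkd1-/- libraries, and Gdf15 and Tgfbr3 are highest in the Pkd2-/- libraries.

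Among the receptors that are members, Tgfbr3 changed most. Tgfbr3 (ENSMUSG00000029287, chromosome 5 from 107106570 to 107289629, minus strand) encodes betaglycan, the coreceptor that presents TGF-beta2 to the kinase receptors and binds inhibins. It had 700, 724, 684 and 743 normalized counts in wild-type libraries, 408, 398, 384 and 496 in the Pkd1-/- clone and 2972, 3653, 2903 and 3768 in the Pkd2-/- clone. The genotypes did not overlap, and the Pkd2-/- mean was 4.66 times that of wild-type. Its log2 fold change was -0.76 ± 0.09 in Pkd1-/- (SE, adjusted p = 2.2e-06), 2.21 ± 0.09 in Pkd2-/- (SE, adjusted p = 3.9e-13) and 2.97 ± 0.09 between the mutants (SE, adjusted p = 3.2e-15). Tgfbr3 made up 19.3% ± 0.984 of the level per kb summed over the 3 TGF-beta receptors in wild-type cells, 11.5% ± 1.21 in the Pkd1-/- clone and 51.8% ± 1.71 in the Pkd2-/- clone (SD, n = 4). Gm43422, on the same strand, shares 4.54% of the exon bases of Tgfbr3.

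The signalling receptors moved less. Tgfbr2, the type II kinase that binds TGF-beta, rose by 0.41 in Pkd1-/- cells (adjusted p = 1.5e-05), where its libraries lay above those of wild-type, and was at 0.11 in Pkd2-/- cells (adjusted p = 0.13; 0.15 with an adjusted p of 0.044 without Pkd2-/- replicate 3). Tgfbr1, its type I partner, was at -0.15 (adjusted p = 0.12) and -0.01 (adjusted p = 0.92), with 95% confidence intervals of -0.30 to -0.01 and -0.16 to 0.14. Between the mutants it was 0.14 (adjusted p = 0.11), or 0.19 (adjusted p = 0.035) without Pkd2-/- replicate 3. In Pkd2-/- cells Bmpr2, the type II receptor of BMPs, rose by 0.57 (adjusted p = 0.00050), and Acvr2b, a type II receptor of activins, rose by 0.76 (adjusted p = 0.0070) from a low mean of 36.5 ± 4.51 to 63.0 ± 10.7 (SD, n = 4). In Pkd1-/- cells these were at -0.06 (adjusted p = 0.76) and 0.00 (adjusted p = 1.0). Bmpr1a, Acvr1, Acvr1b and Acvr2a, the other receptors of BMPs and activins, were not called in any comparison, with log2 fold changes of -0.11 to 0.18. Single libraries bore on 2 of them: Bmpr1a was at -0.15 (adjusted p = 0.032) in Pkd1-/- cells without wild-type replicate 2, and Acvr1 at 0.28 in both mutants (adjusted p = 0.035 and 0.023) without wild-type replicate 4. Acvr2a, which shares 7.84% of its exon bases with Orc4 on the opposite strand, was at 0.18 in Pkd1-/- cells (adjusted p = 0.0085) after correction for GC content and length. Bmpr1b was at 0 to 3 normalized counts. The 50 nearest genes with a mean of at least 10 on chromosome 2 had a median of 0.36 for Acvr1 and 0.35 for Acvr2a in Pkd2-/- cells.

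Smad4, the common Smad of both branches, was at 984 ± 31.5, 963 ± 30.3 and 1010 ± 47.7 normalized counts per kb (SD, n = 4) in wild-type, Pkd1-/- and Pkd2-/- cells, the highest level per kb among the Smads in wild-type cells, and was called in no comparison. Smad2 and Smad5 were not called either, with log2 fold changes of -0.09 to 0.14, though Smad2 was at 0.16 in Pkd1-/- (adjusted p = 0.046) without wild-type replicate 2 and at 0.15 in Pkd2-/- cells (adjusted p = 0.044) without replicate 3. Smad3, the TGF-beta Smad that binds DNA directly, had means of 4169 ± 129, 4671 ± 181 and 3271 ± 296 normalized counts (SD, n = 4), and the 3 genotypes did not overlap. It was 0.16 log2 units higher in Pkd1-/- (adjusted p = 0.040) and 0.35 log2 units lower in Pkd2-/- cells (adjusted p = 5.2e-05), and -0.52 between the mutants (adjusted p = 4.2e-07). The small rise in Pkd1-/- cells was lost without any 1 of 6 libraries, with values of 0.14 to 0.17. Smad1, a BMP Smad, fell by 0.24 on the log2 scale in Pkd1-/- (adjusted p = 0.0065) and by 0.18 in Pkd2-/- cells (adjusted p = 0.026). The latter was -0.14 (adjusted p = 0.092) without wild-type replicate 1 and likewise lost without Pkd2-/- replicates 3 or 4.

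Smad9 (ENSMUSG00000027796, chromosome 3 from 54755582 to 54801257, plus strand), the least abundant of the BMP Smads, had 24, 20, 7 and 23 normalized counts in wild-type libraries, 6, 4, 5 and 7 in the Pkd1-/- clone and 4, 3, 2 and 13 in the Pkd2-/- clone. Wild-type replicate 3 lay with the mutant libraries and Pkd2-/- replicate 4 above it, so that both mutants overlapped or met wild-type. Its log2 fold change was -1.48 ± 0.47 in Pkd1-/- (SE, adjusted p = 0.023) and -1.73 ± 0.47 in Pkd2-/- cells (SE, adjusted p = 0.0054). The fall in Pkd1-/- cells was -1.31 (adjusted p = 0.074) without wild-type replicate 1 and was likewise lost without wild-type replicates 2 or 4 or Pkd1-/- replicates 2 or 3.

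Smad7 and Smad6, the feedback inhibitors, differed between the mutants. Smad7 (ENSMUSG00000025880, chromosome 18, plus strand), which TGF-beta induces and which blocks the type I receptor, had 682, 635, 555 and 739 normalized counts in wild-type libraries. It had 493, 474, 453 and 520 in Pkd1-/- and 860, 1067, 898 and 1076 in Pkd2-/- libraries. The genotypes did not overlap, with log2 fold changes of -0.42 ± 0.09 (SE, adjusted p = 0.0015) and 0.58 ± 0.09 (SE, adjusted p = 3.5e-05) and of 1.00 ± 0.09 between the mutants (SE, adjusted p = 2.9e-08). Smad6, the inhibitor of the BMP branch, fell by 0.48 on the log2 scale in Pkd1-/- (adjusted p = 2.9e-05) and by 0.21 in Pkd2-/- cells (adjusted p = 0.020). The value in Pkd2-/- cells was -0.16 (adjusted p = 0.080) without Pkd2-/- replicate 1, was likewise lost without wild-type replicates 3 or 4 or Pkd2-/- replicate 2, and was at -0.08 (adjusted p = 0.39) after correction for GC content and length.

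Skil, which encodes the Smad corepressor SnoN, fell by 0.43 log2 units with loss of Pkd1 (adjusted p = 0.00041) and rose by 0.23 in Pkd2-/- cells (adjusted p = 0.027). The rise was 0.16 (adjusted p = 0.12) without wild-type replicate 2, was likewise lost without wild-type replicate 3 or Pkd2-/- replicates 2 or 4, and was 0.09 (adjusted p = 0.10) after correction for GC content and length. The difference between the mutants was 0.65 (adjusted p = 1.4e-06). Smurf1, a ubiquitin ligase for BMP Smads and receptors, had 1584 ± 101 normalized counts in wild-type and rose to 2304 ± 120 with loss of Pkd1 (SD, n = 4), by 0.54 log2 units (adjusted p = 1.6e-06). There its 50 nearest genes on chromosome 5 with a mean of at least 10 had a median of 0.21. In Pkd2-/- cells Smurf1 was at -0.12 (adjusted p = 0.13), and at -0.17 (adjusted p = 0.026) without Pkd2-/- replicate 4. Smurf2 was 0.15 log2 units lower with loss of Pkd1 (adjusted p = 0.044), a call lost without any 1 of 7 libraries. It was 0.15 higher in Pkd2-/- than in Pkd1-/- cells (adjusted p = 0.028), a call lost without Pkd1-/- replicates 3 or 4 or Pkd2-/- replicate 4. In that comparison the 50 nearest genes of Smurf2 with a mean of at least 10 had a median of 0.23. Ski was called in no comparison, with 0.08 and 0.12 in the mutants (0.17 with an adjusted p of 0.017 in Pkd2-/- cells without replicate 3). Of the antagonists among the members, Grem1, Nog and Chrd were at or under 3 normalized counts in every library, and the decoy receptor Bambi was at 0 to 7.

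The Id genes, transcription regulators that BMP Smads induce directly, changed one by one rather than as a group. Id1 (ENSMUSG00000042745, chromosome 2 from 152736251 to 152737410, plus strand) had 1598, 1786, 1654 and 1744 normalized counts in wild-type libraries. It had 2412, 2357, 2647 and 2595 in Pkd1-/- and 1063, 994, 1158 and 1060 in Pkd2-/- libraries. The genotypes did not overlap, and Id1 rose by 0.56 ± 0.06 in Pkd1-/- (SE, adjusted p = 5.0e-07), was at -0.67 ± 0.06 in Pkd2-/- (SE, adjusted p = 2.4e-08) and at -1.23 ± 0.06 between the mutants (SE, adjusted p = 2.9e-12). In Pkd2-/- cells its 50 nearest genes with a mean of at least 10 had a median of 0.25, in the other direction.

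Id4 (ENSMUSG00000021379, chromosome 13 from 48261228 to 48266026, plus strand) had 128, 135, 119 and 127 in wild-type libraries, 125, 125, 114 and 104 in the Pkd1-/- clone and 13, 18, 14 and 20 in the Pkd2-/- clone. The Pkd2-/- libraries lay far below the other 8, which overlapped, and the log2 fold change was -2.91 ± 0.16 in Pkd2-/- (SE, adjusted p = 3.3e-11) and -0.12 ± 0.16 in Pkd1-/- cells (SE, adjusted p = 0.64). Id2 fell by 0.57 log2 units with loss of Pkd1 (adjusted p = 7.9e-07) and was at -0.05 in Pkd2-/- cells (adjusted p = 0.52). Id3 was at -0.23 (adjusted p = 0.11) and -0.02 (adjusted p = 0.88), and at 0.21 between the mutants (adjusted p = 0.11), or 0.32 (adjusted p = 0.021) after correction for GC content and length. Per kb, the 4 Id genes summed to 2408 ± 88.1, 2846 ± 138 and 1809 ± 61.4 normalized counts (SD, n = 4) in wild-type, Pkd1-/- and Pkd2-/- cells, and Id1 made up 60.7% ± 1.79, 75.8% ± 0.809 and 50.9% ± 1.86 of the sum. Tgfbi, a matrix protein gene named for its induction by TGF-beta, was at 0 in all 12 libraries.

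Among 115 further genes of the pathway, 84 passed the filter. In Pkd1-/- cells 11 of them rose and 23 fell, or 40.5% beside 27.1% of all genes. In Pkd2-/- cells 22 rose and 26 fell, or 57.1% beside 42.3%. Between the mutants 27 were higher and 22 lower in Pkd2-/- cells, or 58.3% beside 46.3%. At a minimum mean of 10, the shares of all genes called in Pkd2-/- cells and between the mutants lay close to those of the further genes. No excess of further genes is therefore shown in these 2 comparisons. The count of 11 was 7 without wild-type replicate 3 or without Pkd1-/- replicate 2. Several secreted antagonists changed by over 1 log2 unit. Sostdc1, a secreted inhibitor of BMPs and Wnts, had 153, 147, 131 and 150 normalized counts in wild-type libraries, 122, 106, 113 and 94 in the Pkd1-/- clone and 0, 0, 1 and 1 in the Pkd2-/- clone, and so was at least 48.4-fold lower in Pkd2-/- than in wild-type cells (adjusted p = 1.8e-13). Nbl1, a BMP antagonist of the DAN family, had 76, 64, 53 and 57 in wild-type libraries, 284, 205, 251 and 251 in the Pkd1-/- clone and 662, 609, 732 and 588 in the Pkd2-/- clone. The genotypes of Nbl1 did not overlap, with log2 fold changes of 1.97 ± 0.12 (SE, adjusted p = 4.8e-10) and 3.36 ± 0.12 (SE, adjusted p = 9.7e-14).

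Chrdl1, a chordin-like BMP antagonist, had 100, 94, 126 and 127 normalized counts in wild-type libraries, 478, 460, 482 and 411 in the Pkd1-/- clone and 16, 24, 15 and 10 in the Pkd2-/- clone. It rose by 2.03 ± 0.19 in Pkd1-/- (SE, adjusted p = 1.6e-07) and was at -2.76 ± 0.19 in Pkd2-/- cells (SE, adjusted p = 1.1e-09), again without overlap of the genotypes. Kcp, a kielin/chordin-like modulator of BMPs known in the kidney, was low, at 5 to 10, 8 to 21 and 0 to 4 normalized counts in wild-type, Pkd1-/- and Pkd2-/- libraries, with -1.71 in Pkd2-/- cells (adjusted p = 0.0070). Fstl1, a follistatin-like glycoprotein, was at 179 to 202 in wild-type and at 3 to 11 in all mutant libraries.

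Pmepa1, a TGF-beta-induced protein that holds Smad2 and Smad3 away from the receptor, had 323, 324, 344 and 350 normalized counts in wild-type libraries, 448, 381, 353 and 365 in the Pkd1-/- clone and 0, 0, 0 and 1 in the Pkd2-/- clone. It was at least 112-fold lower in Pkd2-/- than in wild-type cells (adjusted p = 6.2e-16), and at 0.20 ± 0.21 in Pkd1-/- cells (SE, adjusted p = 0.54). Dab2, an endocytic adaptor that binds TGF-beta receptors, fell in both mutants, with -0.81 in Pkd1-/- (adjusted p = 7.3e-09) and -1.17 in Pkd2-/- cells (adjusted p = 1.7e-11). Itgb6, the beta subunit of the integrin that activates latent TGF-beta on epithelia, had 2126 to 2432 normalized counts in wild-type libraries, 1234 to 1337 in the Pkd1-/- clone and 637 to 883 in the Pkd2-/- clone, and fell in both mutants, with log2 fold changes of -0.81 and -1.62 (adjusted p = 4.4e-07 and 1.3e-11). Plau, the plasminogen activator urokinase, was at -1.02 in Pkd1-/- (adjusted p = 8.2e-10) and 0.05 in Pkd2-/- cells (adjusted p = 0.59). Acvrl1, a type I receptor known from endothelium, had 3 to 11 normalized counts in wild-type and 44 to 48 in Pkd2-/- libraries (log2 fold change 2.75, adjusted p = 0.00023). The sum of 8 endothelial markers was 5 to 14 in wild-type and 2 to 11 in Pkd2-/- libraries, and its bearing on Acvrl1 was not tested.

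Of 20 genes often used as TGF-beta targets 19 were tested. With loss of Pkd1, 2 rose and 8 fell, or 52.6% beside 27.1% of all genes, and in Pkd2-/- cells 4 rose and 7 fell, or 57.9% beside 42.3%. Between the mutants 8 were higher and 5 lower in Pkd2-/- cells, or 68.4% beside 46.3%. Acta2 and Tagln, which encode smooth muscle actin and transgelin, were at -2.45 and -1.69 in Pkd2-/- cells (adjusted p = 1.2e-08 and 4.0e-07), and Itga5, the fibronectin receptor subunit, at -1.91 (adjusted p = 3.1e-12). In Pkd1-/- cells these were at -0.58 (adjusted p = 0.039), 0.27 (adjusted p = 0.31) and -0.18 (adjusted p = 0.14). Col4a1, a basement membrane collagen chain, had 38 to 69 normalized counts in wild-type and at most 4 in mutant libraries (adjusted p = 1.4e-07 and 4.9e-07), and Timp3, an inhibitor of metalloproteinases, 18 to 22 in wild-type and at most 4 in Pkd1-/- libraries (adjusted p = 1.3e-05).

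Of 12 genes often used as BMP targets 9 were tested. With loss of Pkd1, 1 rose and 2 fell, or 33.3% beside 27.1% of all genes, and in Pkd2-/- cells 1 rose and 5 fell, or 66.7% beside 42.3%. Between the mutants 1 was higher and 4 lower in Pkd2-/- cells, or 55.6% beside 46.3%. Dlx5, a homeobox factor of bone, had 66 to 109 normalized counts in wild-type libraries, 13 to 20 in the Pkd1-/- clone and 0 in all 4 Pkd2-/- libraries, at least 28.3-fold lower in Pkd2-/- than in wild-type cells (adjusted p = 1.5e-12). Hey1, a Notch and BMP target, was at -2.0 in Pkd2-/- cells (adjusted p = 9.8e-05). Gata3, a factor of the ureteric bud and collecting duct, had 176 to 248 in wild-type libraries, 42 to 56 in the Pkd1-/- clone and 294 to 430 in the Pkd2-/- clone, with log2 fold changes of -2.20 and 0.64 (adjusted p = 6.3e-10 and 0.00097).

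**Figure D4:**
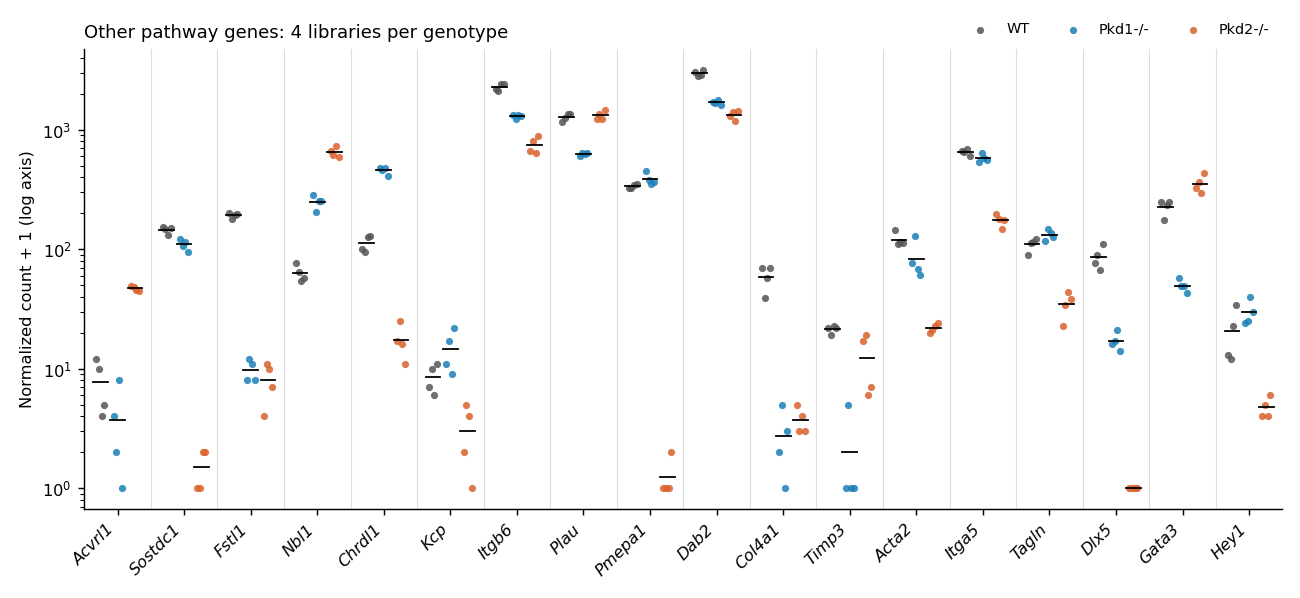
Normalized count + 1 (log y axis) of the 18 further pathway genes named by size of change, 1 point per library and a line at the mean of 4, in wild-type (grey), Pkd1-/- (blue) and Pkd2-/- cells (orange). Sostdc1, Pmepa1 and Dlx5 are at 0 or 1 normalized count in the Pkd2-/- libraries, and Chrdl1 is highest in the Pkd1-/- and lowest in the Pkd2-/- libraries.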

How the data were processed

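RNA of 12 libraries, 4 of each of 3 genotypes, was sequenced. Per the study's methods, the authors used Trim Galore for trimming, HISAT2 for alignment to GRCm38 and htseq-count for counts per gene, whose strand setting is not given in the sources used here. The deposited score values are counts that the authors divided by DESeq2 size factors and rounded to whole numbers. They are not read counts, so a count model was not applied, and counting limits cover counting error only. All 12 sample columns were used and 0 were left unused. Symbols, exon lengths and positions came from GENCODE M21, where 47223 of the 47642 identifiers were found. Identical libraries were looked for and 0 pairs found.

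Members and gene lists were chosen with earlier results of these data known. Genes with a mean of at least 1 were fitted in limma 3.58.1 (R 4.3.3) on log2(normalized count + 1), with a mean-variance trend and all 12 libraries in 1 model. Benjamini-Hochberg adjustment ran over all 18552 genes in each comparison. Tests were two-sided. The exact permutation test of a mean (two-sided, 4 libraries against 4) has 70 arrangements and cannot go below p = 0.0286, which non-overlapping genotypes gave. Values per library are given for members past both thresholds with a mean of at least 10 in 1 genotype, and further genes were named by the same thresholds against wild-type, at most 5 per list. Alternatives were other pseudocounts, filters, scaling, GC and length correction, a replicate block, robust variances, 2 genotypes only and leaving out each library. The fit was tested on simulated data. Pairing by replicate number was checked by the correlation of deviations from the group means.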

Additional observations from a re-analysis of the deposited data

Results flagged for a closer look

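Of 107 sets of 4 libraries, those of the members with a mean of at least 10 in a genotype, 5 had 1 library whose gap to the nearest other library was a larger share of their range than Dixon's 95% critical value, a limit that chance passes in about 1 of 20 sets. Tgfb1 was lowest in Pkd1-/- replicate 2, with 974 normalized counts beside 1060, 1074 and 1076. Ltbp1 was highest in the same replicate, with 1703 beside 1514, 1512 and 1537. Smad3 was highest in wild-type replicate 4, with 4361 beside 4132, 4090 and 4093. Smurf1 was highest in Pkd2-/- replicate 4, with 1620 beside 1387, 1426 and 1406. Ski was lowest in Pkd1-/- replicate 1, with 4241 beside 4413, 4411 and 4433.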

How the results depend on the processing

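Each test was repeated under 22 alternatives, 12 of which left out 1 library. Of 2685 fold changes of members recomputed, 2567 kept their direction and side of the threshold, 85 lost their call, 33 gained one and 0 reversed while called. The calls of members with a log2 fold change of at least 1 held in all alternatives where they were tested, except for Bmp8a and Smad9 in Pkd1-/- and Bmp6 in Pkd2-/- cells. Between the mutants Smad7 stayed called but was under 1 log2 unit in 6 alternatives (0.93 to 1.09 over all 22). The count of members higher by at least 1 in Pkd1-/- cells, 2, was 1 with a pseudocount of 5 and 1 without a filter on low values, and 1 to 2 without single libraries. The count of members lower, 4, was 2 with a minimum mean of 10, which leaves Bmp6 and Smad9 untested. The count of further genes higher in Pkd1-/- cells, 11, was 7 to 11 without single libraries. Without Pkd2-/- replicate 3, the library with the highest fibroblast markers, 11 members rose and 12 fell in Pkd2-/- cells. Of the 18541 genes tested there, 3603 rose and 4019 fell. Correction for GC content and length gained calls of Bmp4 (-0.30), Smad2 (0.16) and Acvr2a (0.18) in Pkd1-/- cells, of Ltbp3 (0.12) in Pkd2-/- cells and of Tgfb1 (0.16) and Id3 (0.32) between the mutants, and lost those of Smad3 in Pkd1-/- (0.15) and of Smad6 and Skil in Pkd2-/- cells.

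Replicate numbers did not pair the libraries throughout, but the replicate 4 libraries shared some deviation. The correlation of deviations of same-numbered libraries was -0.0726 to 0.200, beside -0.199 to 0.114 for libraries of different number. It was above 0.1 in 2 of 12 pairs, and 3 libraries correlated best with their own number. Both pairs were of replicate 4, with 0.200 for wild-type and Pkd2-/- and 0.167 for Pkd1-/- and Pkd2-/- libraries, the highest of all pairs. What the replicate 4 libraries share was not tested. With the replicate block, 7 members rose and 14 fell in Pkd1-/- cells, 8 rose and 14 fell in Pkd2-/- cells, and 12 were higher and 12 lower between the mutants, where Inhba lost its call. Of all 18552 genes, 2686 then rose and 2636 fell in Pkd1-/- cells, and 3843 rose and 4205 fell in Pkd2-/- cells. Between the mutants 4195 were higher and 4587 lower, so more genes were called with the block in each comparison. With the block and the GC and length correction, Id3 was also called in Pkd1-/- cells (-0.27, adjusted p = 0.014) and Acvr1b between the mutants (0.11, adjusted p = 0.046). Low members such as Bmp6, Bmp8a and Smad9 are limited by their counts of under 30.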

Other observations

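Ccn1 and Ccn2, matricellular genes often read as targets of TGF-beta and of the Hippo pathway, were lowest in replicate 1 and highest in replicate 4 of every genotype. Ccn1 had 29131, 47935, 54423 and 65525 normalized counts in wild-type, 24542, 34218, 40409 and 47138 in Pkd1-/- and 44472, 51717, 62746 and 107093 in Pkd2-/- replicates 1 to 4. Ccn2 had 5068, 6553, 7102 and 8736 in wild-type, 2629, 3386, 3748 and 4433 in Pkd1-/- and 8474, 9678, 11235 and 15476 in Pkd2-/- libraries. The log2 fold change of Ccn1 was -0.41 in Pkd1-/- (adjusted p = 0.26) and 0.41 in Pkd2-/- cells (adjusted p = 0.21), and with the replicate block the adjusted p-values were 0.00063 and 0.00035. Ccn2 was at -0.95 in Pkd1-/- (adjusted p = 0.00035) and 0.70 in Pkd2-/- cells (adjusted p = 0.0030) without the block. These genes were singled out after their values were seen, and the labels do not say what a replicate number stands for.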
